A study of Mus musculus with 8 samples.

Results

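Transcripts of the proteins that build the cytosolic small ribosomal subunit were examined in the gastrocnemius, a calf muscle made mostly of fast fibres, of mice lacking Bcat2 and of wild-type mice. The members were taken by gene symbol: Rpsa, Fau and the Rps genes numbered 2 to 29 with an optional a or x, plus Rps3a1 and Rps27l, leaving out S6 kinases and pseudogenes. This gave 33 genes of 38741 symbols in the table. The rule reads symbols alone, but it was set with earlier results of these data known. All 33 passed the filter on low values, a mean of at least 1 FPKM over the 8 mice, as did 11118 genes in all. FPKM correct the fragment count of a gene for its exon length and for the size of the library. Levels of genes of unlike length are then more nearly comparable, though some dependence on length can remain.

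The 4 knockouts were males homozygous for the Bcat2tm1.2Clyn allele, aged 10 to 11 weeks, with a body weight of 19.5 ± 4.2 g (SD, n = 4). The 4 wild types were males aged 9 to 10 weeks, with a body weight of 24 ± 1.41 g (SD, n = 4). Both groups were on the C57BL6 background, and both had free choice of a chow and a purified diet without branched-chain amino acids. Bcat2 encodes the enzyme of mitochondria that removes the amino group from the branched-chain amino acids leucine, valine and isoleucine, and the study compared muscle with and without it. Knockout weights ran from 15 to 24 g and wild-type weights from 22 to 25 g. The knockouts aged 11 weeks weighed within the wild-type range, and those aged 10 weeks weighed less. Genotype, the lower mean weight and the slightly greater age cannot be told apart. The labels give each mouse as a biological replicate. Knockout columns KO5 to KO8 carry numbers that the labelled knockouts do not, so no weight or age was tied to a single knockout.

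The small subunit binds the messenger RNA, brings the start codon and each later codon to the decoding site, and joins the large subunit once initiation is complete. Its proteins fold around a ribosomal RNA core into a head, which carries the gate for the messenger RNA, and a body with a platform, where decoding and the exit of the messenger RNA take place. Messenger RNAs for ribosomal proteins typically begin with a run of pyrimidines, the terminal oligopyrimidine or TOP motif, through which the leucine-sensitive kinase complex mTORC1 and the RNA-binding protein Larp1 govern their translation.

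The stretch around the annotated start of transcription is shown for members on which the results below turn, because the TOP motif lies there. Each sequence holds the 20 bases before the start and the first 10 transcribed bases, 5′ to 3′ on the transcribed strand, from RefSeq on GRCm38.p6. Capitals mark the longest run of C and T that touches the 10 bases on either side of the start. Where runs tie in length, as in Rps7, the first is marked. The first 5 have a long run, and the last 3 do not.
Fau, chr19:6057927-6057956, plus strand: ggacgtgcgcgcccccaCTTCTTCCTCTTT
Rps10, chr17:27635235-27635264, minus strand: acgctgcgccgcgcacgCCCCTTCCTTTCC
Rps18, chr17:33955656-33955685, minus strand: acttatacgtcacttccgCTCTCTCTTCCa
Rps27, chr3:90213639-90213668, minus strand: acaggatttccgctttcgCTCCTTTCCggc
Rps6, chr4:86857358-86857387, minus strand: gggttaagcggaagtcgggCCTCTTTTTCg
Rps7, chr12:28635944-28635973, minus strand: gaagagCTTCCggtttccacccacctactt
Rps28, chr17:33824553-33824582, minus strand: tcctgggtaccgcgtgcggTCTCgcgagag
Rps4x, chrX:102189382-102189411, minus strand: aaagtctgaggctgggcggagcaaCCCagg
A start was matched for 25 of the 33 members. A run of at least 7 pyrimidines touched this window in 14 of these 25 members, or 56.0%, against 22.5% of 27025 genes with a start in the same RefSeq table. Members with such a run included Rps27, whose transcript was the most abundant of the module, and Rps6, the least abundant. A run is a match of letters near an annotated start, and where transcription began in these muscles was not measured.

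Bcat2 fell to 3.29 ± 1.37 FPKM in knockouts, against 53.2 ± 19.9 FPKM in wild types (SD, n = 4 each; log2 fold change -3.65, limma adjusted p = 0.00245). Muscle transcripts summed over 11 listed markers lay at 97699 to 142181 FPKM in knockouts and 99127 to 116053 FPKM in wild types. Knockout KO6 stood apart: its 8 skin markers summed to 770 FPKM, against 4.57 to 5.78 FPKM in the other knockouts and 3.57 to 6.11 FPKM in wild types. Adipocyte markers, 10 in all, summed to 10493 FPKM in KO6 and 19509 FPKM in WT1, against 1629 to 3266 FPKM in the other mice. Immune markers summed to 132 to 372 FPKM in knockouts, with KO6 highest, and 108 to 221 FPKM in wild types. Read depth relative to WT2, estimated from low FPKM, was 0.547, 0.727, 1.21 and 0.774 in KO5 to KO8, against 1.06, 1, 1.23 and 0.437 in WT1 to WT4. Fold changes of the members described below are therefore given with and without KO6. Summaries of the module are also given without both KO6 and WT1.

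Small subunit transcripts averaged higher in knockouts for every one of the 33 members, although none passed the test over all genes. Log2 fold changes of FPKM + 1 ran from 0.09 for Rps28 to 1.12 for Rps14, and all were above 0 in the FPKM as deposited and after median-ratio scaling. When each mouse was rescaled to an equal FPKM total 32 of 33 were above 0, and after quantile normalization or removal of a length and GC trend 31 of 33, with Rps28 below 0 under each of these. A fold change above 0 was found for 36.4% of all tested genes. The median of the members was 0.42, against -0.12 for all tested genes, so that the members lay 0.54 above the rest on the log2 scale. Median-ratio scaling moved the median of all genes to 0.00, and the members then lay 0.58 above it. Quantile normalization moved it to -0.04, and the members lay 0.33 above it. Muscle holds several cell types, and in whole tissue more or fewer cells of a type and more or less RNA per cell cannot be told apart.

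With limma and Benjamini-Hochberg adjustment over the 11118 genes, 0 of 33 members had an adjusted p below 0.05, and 0.027% of all tested genes did. Their adjusted p ran from 0.480 to 0.875. An unadjusted p below 0.05 in the direction of the knockouts was reached by 13 members, whereas 2.99% of all tested genes met that rule. In the direction of the wild types it was reached by 0 members and 7.33% of tested genes. In 10 members every knockout exceeded every wild type, against 2.08% of tested genes. No member had every knockout below every wild type, against 4.68% of tested genes.

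Among these 10 members with separate groups were Rps7, Rps10, Rps14, Rps18, Rps20, Rps21, Rps27, Rps27a and Rps27l. Members with groups that overlapped also reached an unadjusted p below 0.05, Rps3 and Rps15 among them. The count of 13 depended on single mice: it was 6 without KO6 (2.02% of genes tested in that fit), 7 without WT3 (1.83%) and 8 without WT4 (2.08%). Without both KO6 and WT1, the mice with the highest adipocyte markers, it was 10 (3.2%). After median-ratio scaling the count was 24, and 6.79% of all tested genes then met the rule. The 6 members that reached it without KO6 were Rps7, Rps14, Rps20, Rps27, Rps27a and Rps27l.

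**Figure D1:**
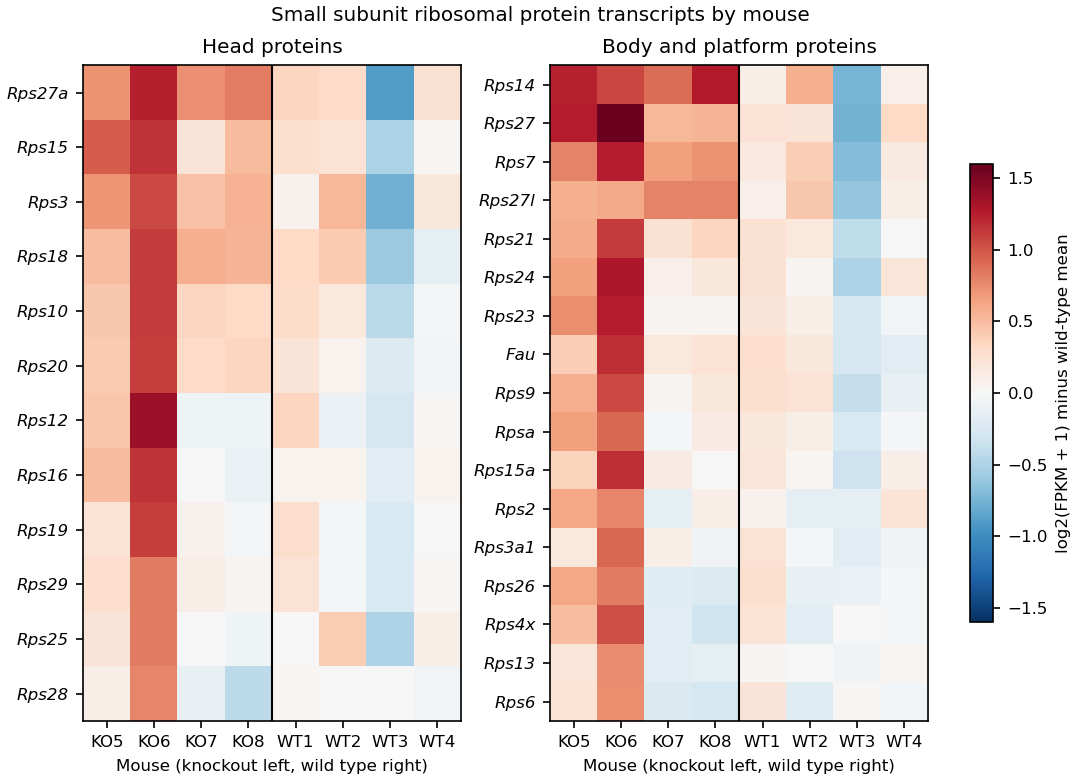
Each cell gives log2(FPKM + 1) of a member in a mouse minus the mean of the 4 wild types, red above and blue below; knockouts are left of the black line, and members are ordered by fold change within the head (left panel, 12 members) and the body and platform (right panel, 17 members). The KO6 column is red for all 29 members drawn, the KO7 and KO8 columns are red for the upper rows and blue for the lower ones, and WT3 is the bluest column.

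The heat map by mouse shows that the knockouts were not alike. KO6 was the highest of the 8 mice for 31 of 33 members, and for the others, Rps14 and Rps27l, KO8 was highest. KO6 was the highest mouse for 24% of all tested genes. WT3 was the lowest mouse for 25 members, against 12.5% of tested genes. KO6 exceeded every wild type for 33 members and KO5 for 28, whereas KO7 did so for 11 and KO8 for 13.

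The same division is seen within the knockouts. In both KO7 and KO8, 11 members exceeded every wild type, and the 10 with separate groups were among them by definition. Both of these mice lay below the wild-type mean for 10 other members, among them Rps4x, Rps6, Rps12, Rps13, Rps16, Rps25, Rps26 and Rps28. In total, 20 members had KO7 and KO8 both at or below the highest wild type. The labelled knockouts also differed in weight and age, and no column could be tied to either, so a relation with this division was not tested.

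Summed over the 33 members, small subunit transcripts came to 26803, 35533, 20699 and 21959 FPKM in KO5 to KO8, against 18592, 18725, 11889 and 17290 FPKM in WT1 to WT4. All 4 knockouts exceeded all 4 wild types, with KO6 highest and WT3 lowest. As a share of each mouse's total FPKM, the sums were 2.99, 4.06, 2.87 and 2.89% in KO5 to KO8, against 2.47, 2.36, 1.72 and 2.15% in WT1 to WT4, and the groups again did not overlap. A sum is led by the most abundant members, and Rps27 and Rps14 together with Rps21 and Rps15 lead this one. The median over members, which weighs each gene alike, lay at 0.24, 0.80, -0.11 and -0.07 log2 units from the gene's own mean over all mice in KO5 to KO8, against -0.03, -0.14, -0.52 and -0.18 in WT1 to WT4. On that scale KO7 and KO8 lay below WT1. After subtraction of the median of all tested genes in the same mouse, the values were 0.26, 0.66, -0.05 and 0.28 in KO5 to KO8. They were -0.14, -0.07, -0.68 and -0.15 in WT1 to WT4, so all knockouts lay above all wild types. KO7 and WT2 were close, beside a pooled within-group SD of 0.33 for the member medians before subtraction. The median of all tested genes subtracted in KO8, -0.35, was the lowest of any mouse.

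Levels differed widely between members. Mean FPKM over the 8 mice ran from 89.5 for Rps6 to 3455 for Rps27, a ratio of 38.6, with a median of 498. Rps27 ranked at place 33 and Rps14 at place 41 by mean FPKM of all symbols, Rpsa at place 552 and Rps6 at place 746. Shorter members tended to have the higher mean FPKM, with a Spearman rho of -0.41 for transcript length and -0.36 for coding length. Whether a length bias bears on these levels was not tested. The more abundant members tended to have the larger fold changes, with a Spearman rho of 0.61 across the 33 genes, which share the same 8 libraries. This is a description across genes, not across replicates.

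Among proteins of the head, 8 of 14 members reached an unadjusted p below 0.05, all higher in knockouts, and 5 of 14 had separate groups. Their median log2 fold change was 0.46, and 0.31 without KO6. Among proteins of the body and platform, 5 of 19 reached it, all higher in knockouts, and 5 had separate groups, with a median of 0.42, and 0.26 without KO6. By descent, 6 of the 15 members with a counterpart in bacteria reached it (median 0.42), and 7 of the 18 found only in eukaryotes and archaea did (median 0.46). No difference between these classes was tested. Of all tested genes, 2.99% reached that p higher in knockouts, and in 2.08% every knockout exceeded every wild type.

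Rps14 (ENSMUSG00000024608, chr18:60774510-60778546, plus strand, mm10) encodes a platform protein beside the exit path of the messenger RNA, and loss of 1 copy of the human gene underlies the anaemia of the 5q- syndrome. It had 3861, 3462, 3043 and 3963 FPKM in KO5 to KO8, against 1771, 2434, 978 and 1732 FPKM in WT1 to WT4. The lowest knockout, KO7, exceeded the highest wild type, WT2. Rps14 averaged 2.07 times the wild-type level (log2 fold change 1.12, SE 0.25, 95% interval 0.54 to 1.69, limma unadjusted p = 0.00191, adjusted p = 0.480). The exact permutation test over the 70 labelled splits of the mice gave a 2-sided p of 0.0286, the smallest that 4 against 4 can give, and the value of any gene whose groups are separate. Without KO6 the log2 fold change was 1.13. Rps14 overlaps Ndst1 on the opposite strand, and the sources used here name no strand setting. Reads in the stretch that Rps14 and Ndst1 share therefore cannot be told apart by strand, and the length of that stretch was not measured.

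Rps27 (ENSMUSG00000090733, chr3:90212725-90213615, minus strand) encodes a zinc-binding protein of the platform side. It had 5325, 6615, 3200.4 and 3242 FPKM in KO5 to KO8, against 2609, 2565, 1318 and 2763 FPKM in WT1 to WT4. KO5 and KO6 were far above the rest, and KO7 was still above the highest wild type, WT4. The limma fit gave a log2 fold change of 0.98 (SE 0.31, unadjusted p = 0.0133, adjusted p = 0.480), and 0.78 without KO6. All of its coding sequence occurs in 50-base windows that are also found in transcripts of other genes. For Rps14, 51.7% of the windows were shared, and how far sharing alters either level was not tested.

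Rps27l (ENSMUSG00000036781, chr9:66946086-66949516, plus strand) encodes a close paralog of Rps27 that in human cells is induced by p53. Its values were 579.9, 597, 677 and 677 FPKM in KO5 to KO8, against 415, 529.7, 254 and 419 FPKM in WT1 to WT4. Here KO7 and KO8 were the highest mice, and the groups did not overlap. In the limma model it had a log2 fold change of 0.69 (SE 0.21, unadjusted p = 0.0112, adjusted p = 0.480), and 0.72 without KO6. The ratio of Rps27 to Rps27l was 9.18, 11.1, 4.73 and 4.79 in KO5 to KO8, against 6.29, 4.84, 5.19 and 6.59 in WT1 to WT4. The knockouts thus lay at both ends of this ratio, with all wild types between them.

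Rps7 (ENSMUSG00000061477, chr12:28630847-28635953, minus strand) encodes a body protein that also binds the p53 regulator Mdm2. It had 626, 862, 567 and 594 FPKM in KO5 to KO8, against 401, 471, 221 and 397 FPKM in WT1 to WT4. Every knockout was above every wild type. With limma, the log2 fold change was 0.86 (SE 0.25, unadjusted p = 0.00764, adjusted p = 0.480), and 0.73 without KO6.

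**Figure D2:**
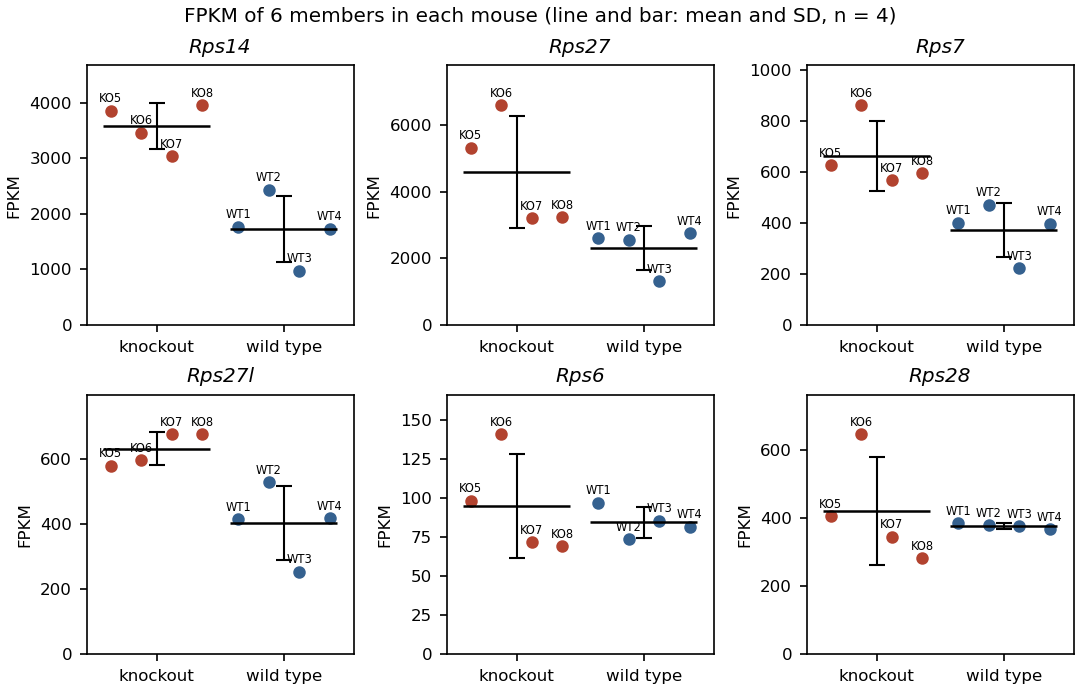
FPKM of 6 members in each mouse, knockouts left (red) and wild types right (blue), with the mean as a line and the SD as a bar (n = 4 each); each axis starts at 0. Rps14, Rps27, Rps7 and Rps27l have separate groups, whereas for Rps6 and Rps28 KO5 and KO6 lie above the wild types and KO7 and KO8 below them.

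A pair of members are made as fusions with ubiquitin or a ubiquitin-like protein. Rps27a (ENSMUSG00000020460, chr11:29545846-29548109, minus strand) encodes ubiquitin joined to a protein of the head. It had 873, 1254, 879 and 929.7 FPKM in KO5 to KO8, against 669, 652, 285 and 627 FPKM in WT1 to WT4. No values of the groups overlapped, and WT3 was far below the other wild types. The limma fit gave a log2 fold change of 0.88 (SE 0.28, unadjusted p = 0.0136, adjusted p = 0.480), and 0.76 without KO6. Its gene overlaps Clhc1 on the opposite strand. Fau (ENSMUSG00000038274, chr19:6057888-6059524, plus strand) encodes a ubiquitin-like protein joined to a body protein near the decoding site. It had 180.1, 311, 154 and 160.3 FPKM in KO5 to KO8, against 165, 155, 113 and 121 FPKM in WT1 to WT4. KO7 and KO8 lay within the wild-type range. In the limma model it had a log2 fold change of 0.49 (SE 0.25, unadjusted p = 0.0790, adjusted p = 0.486), and 0.26 without KO6.

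Rps15 (ENSMUSG00000063457, chr10:80292453-80294114, plus strand) encodes a head protein whose tail reaches the decoding site. It had 1491, 1704, 881 and 1089 FPKM in KO5 to KO8, against 914, 895, 537 and 775 FPKM in WT1 to WT4. KO7 lay within the wild-type range, and the other knockouts lay above it. With limma, the log2 fold change was 0.71 (SE 0.25, unadjusted p = 0.0204, adjusted p = 0.480), and 0.56 without KO6 (unadjusted p = 0.0561). The exact permutation test gave a 2-sided p of 0.0857.

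Other head proteins with an unadjusted p below 0.05 included Rps3, Rps10, Rps18 and Rps20. Rps3, which grips the messenger RNA at its entry, averaged 1139.5 ± 218 FPKM in knockouts and 729 ± 247 FPKM in wild types. Rps18, which forms contacts between the subunits, averaged 575 ± 128 FPKM in knockouts and 364 ± 109 FPKM in wild types. Rps20 averaged 799 ± 232 FPKM in knockouts and 537 ± 66.6 FPKM in wild types. For Rps18 and Rps20 KO6 was far above the other knockouts, and all knockouts exceeded all wild types. Rps10, near the entry of the messenger RNA, averaged 253 ± 74.9 FPKM in knockouts and 170.1 ± 35.3 FPKM in wild types. For Rps10 the lowest knockout was just above the highest wild type. All errors are SD over 4 mice, the log2 fold changes of these 4 genes ran from 0.54 for Rps20 to 0.70 for Rps3, and the adjusted p was 0.480 in each. Without KO6 they were 0.58 for Rps3, 0.54 for Rps18, 0.37 for Rps10 and 0.36 for Rps20. In that limma fit the unadjusted p was 0.0359 for Rps20, whereas it was 0.0606 for Rps18, 0.0823 for Rps3 and 0.0942 for Rps10.

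Head proteins that did not reach an unadjusted p below 0.05 were Rps12, Rps16, Rps19, Rps25, Rps28 and Rps29. Rps12, on the beak of the head, had 459 to 1269 FPKM in knockouts, against 402 to 617 FPKM in wild types. Rps19, the gene most often mutated in Diamond-Blackfan anaemia, had 201 to 439 FPKM in knockouts and 172 to 247 FPKM in wild types. Rps16 had 149 to 361 FPKM in knockouts and 143 to 168 FPKM in wild types. For these 3 genes KO6 was the highest mouse, and their log2 fold changes without it were 0.10 for Rps12, 0.09 for Rps19 and 0.13 for Rps16. Rps25, which viral and cellular internal entry sites need, had 359 to 669.9 FPKM in knockouts and 266 to 498 FPKM in wild types. Rps29 had 501 to 866 FPKM in knockouts and 411 to 571 FPKM in wild types. Their log2 fold changes were 0.25 for Rps25 and 0.31 for Rps29 over all mice, and 0.05 and 0.14 without KO6.

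Rps28 (ENSMUSG00000067288, chr17:33819027-33824562, minus strand) encodes a small protein by the exit of the messenger RNA. It had 405, 645, 345 and 281 FPKM in KO5 to KO8, against 384, 378, 376 and 366 FPKM in WT1 to WT4. The wild types lay close together (SD 7.63 FPKM), and the knockouts lay on both sides of them (SD 159 FPKM). The limma fit gave a log2 fold change of 0.09 (SE 0.23, 95% interval -0.45 to 0.62, unadjusted p = 0.719), and -0.14 without KO6. Its gene overlaps Kank3 on the opposite strand.

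Rps6 (ENSMUSG00000028495, chr4:86854660-86857412, minus strand) encodes the body protein phosphorylated by the S6 kinases, a standard readout of mTORC1 activity. It had 98.1, 141, 71.5 and 69.0 FPKM in KO5 to KO8, against 96.8, 73.5, 85.3 and 81.5 FPKM in WT1 to WT4. KO5 and KO6 lay above every wild type, and KO7 and KO8 lay below every wild type. In the limma model it had a log2 fold change of 0.11 (SE 0.23, 95% interval -0.42 to 0.65, unadjusted p = 0.637), and -0.09 without KO6.

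Rps13 (ENSMUSG00000090862, chr7:116331507-116334190, minus strand) encodes a platform-side protein that takes part in bridging the subunits. It had 220.0, 324, 169 and 171 FPKM in KO5 to KO8, against 197, 190.2, 184 and 197 FPKM in WT1 to WT4. As with Rps6, KO5 and KO6 were above and KO7 and KO8 below all wild types. The limma fit gave a log2 fold change of 0.15 (SE 0.21, unadjusted p = 0.487), and -0.05 without KO6.

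Rps4x (ENSMUSG00000031320, chrX:102184941-102189394, minus strand) is the X-linked member and encodes a body protein. It had 318, 463, 198 and 181 FPKM in KO5 to KO8, against 264, 199.6, 224 and 221 FPKM in WT1 to WT4. Again KO5 and KO6 were above and KO7 and KO8 below all wild types. In the limma model it had a log2 fold change of 0.25 (SE 0.29, unadjusted p = 0.404), and -0.01 without KO6. Rpsa (ENSMUSG00000032518, chr9:120127766-120132369, plus strand) encodes the platform protein also known as the laminin receptor. It had 165, 198, 104 and 115 FPKM in KO5 to KO8, against 118, 112, 87.9 and 104 FPKM in WT1 to WT4. KO7 and KO8 lay within the wild-type range. With limma, the log2 fold change was 0.42 (SE 0.22, unadjusted p = 0.0913), and 0.26 without KO6.

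Other body and platform proteins were Rps2, Rps3a1, Rps9, Rps15a, Rps21, Rps23, Rps24 and Rps26. Rps21 was the only one of these 8 with an unadjusted p below 0.05, at 1324 ± 387 FPKM in knockouts and 875 ± 165 FPKM in wild types (SD, n = 4 each; limma unadjusted p = 0.0299, exact permutation p = 0.0286), and its groups did not overlap. Its log2 fold change was 0.58, and 0.40 without KO6 (limma unadjusted p = 0.0690). Rps24 averaged 1045 ± 428 FPKM in knockouts and 685 ± 145 FPKM in wild types. Rps9, which lines the entry of the messenger RNA, averaged 768 ± 254 FPKM in knockouts and 543 ± 109.9 FPKM in wild types. In Rps24 and Rps9 KO7 and KO8 were within the wild-type range. Rps23, at the decoding site, had 133 to 309 FPKM in knockouts and 107 to 149 FPKM in wild types. Rps15a had 659 to 1494 FPKM in knockouts and 522 to 750.4 FPKM in wild types. Rps2, at the entry of the messenger RNA, had 387 to 738 FPKM in knockouts and 388 to 502 FPKM in wild types. Rps3a1, on the platform, had 169 to 334 FPKM in knockouts and 157 to 208 FPKM in wild types. KO6 was the highest mouse for all of these genes. Rps26, at the exit of the messenger RNA, had 326 to 675 FPKM in knockouts and 348 to 451 FPKM in wild types. The log2 fold change was 0.55 for Rps24, 0.52 for Rps23, 0.47 for Rps9 and 0.42 for Rps15a over all mice, and without KO6 it was 0.31 for Rps24, 0.28 for Rps23, 0.27 for Rps9 and 0.16 for Rps15a. It was 0.34 for Rps2, 0.28 for Rps3a1 and 0.26 for Rps26 over all mice, and without KO6 it was 0.19 for Rps2 and 0.07 for both Rps3a1 and Rps26.

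**Figure D3:**
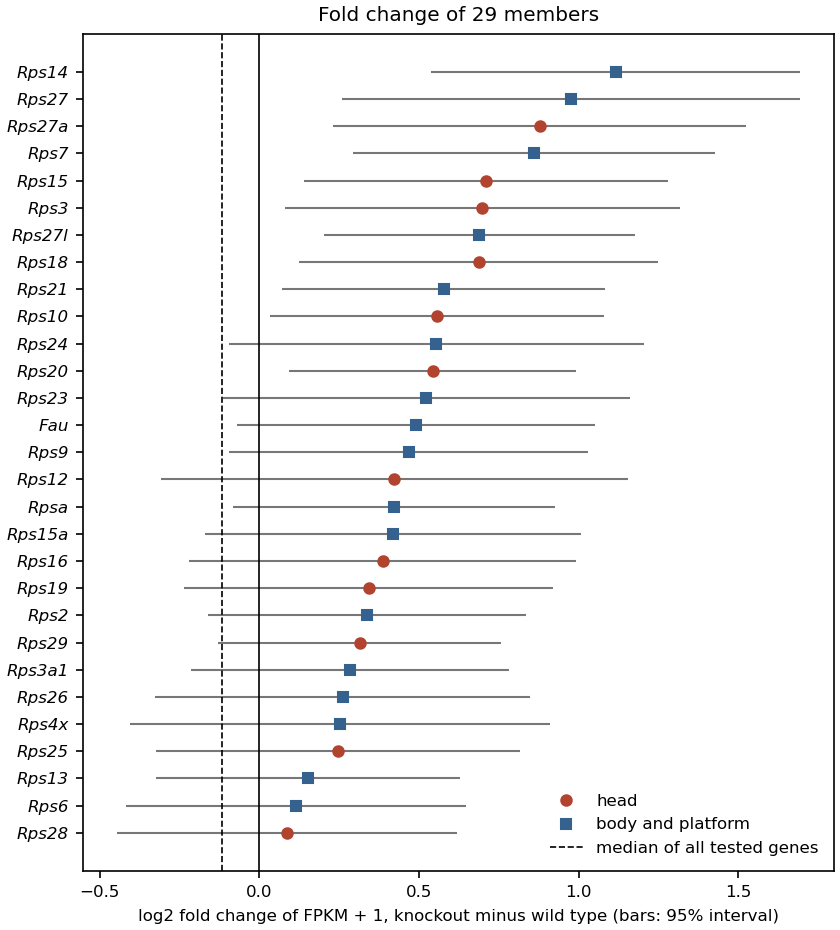
Log2 fold change of FPKM + 1, knockout minus wild type, for 29 members, with the 95% interval as a bar, circles for the head and squares for the body and platform; the dashed line is the median of all tested genes. All 29 points lie right of 0, from 0.09 for Rps28 to 1.12 for Rps14, though Rps28 falls below 0 under rescaling to an equal total also under quantile normalization or a length and GC correction, and the interval excludes 0 for 11 of the members drawn.

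The plot of fold changes shows no step between members whose interval excludes 0 and the rest, and both structural classes are spread over its length. Leaving out KO6 lowered the fold change of 31 members and raised it slightly for Rps14 and Rps27l. Without KO6 the median of the members was 0.26, against -0.20 for all tested genes, and 28 members remained above 0. Without WT3, the lowest wild type for most members, the median was 0.33, against -0.08 for all tested genes. Without both KO6 and WT1 the median was 0.32, against -0.16 for all tested genes, and 29 members were above 0. Among the 5 members below 0 without KO6 were Rps4x, Rps6, Rps13 and Rps28. Without KO6, the 10 members with separate groups had fold changes from 0.36 for Rps20 to 1.13 for Rps14.

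**Figure D4:**
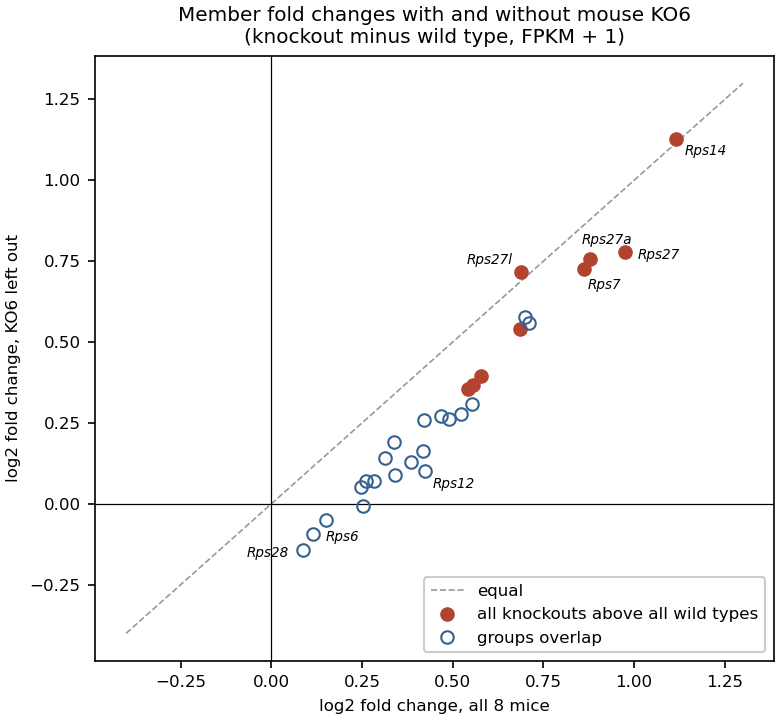
Log2 fold change (FPKM + 1, knockout minus wild type) of 29 members over all 8 mice (horizontal) and with KO6 left out (vertical); filled circles are the 9 members drawn in which all knockouts exceed all wild types, open circles the 20 whose groups overlap, and the dashed line marks equal values. Rps14 and Rps27l lie on or just above the line, and Rps4x, Rps6, Rps13 and Rps28 lie below 0 on the vertical axis.

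The part of skin, adipocyte and immune RNA in the KO6 values was not tested. Skin markers other than in KO6 were near their floor: Krt14 was listed at 0 in KO5 and at 0.291 and 0.365 FPKM in KO7 and KO8, against 108 FPKM in KO6. The 10 members with separate groups stay separate with KO6 left out. This was fixed in advance, since leaving out a mouse cannot make separate groups overlap.

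How the reads were placed bears on these levels. Ribosomal protein genes have many processed pseudogenes, and 88 pseudogene rows named for 19 of the members stand beside them in the table. Of the 50-base windows along each coding sequence, a median of 88.3% were also found in a transcript of another gene. For 11 members all were, among them Rps6, Rps13, Rps27 and Rps28. FPKM were made from uniquely mapped reads, per the labels' protocols, so the level of such a member rests on few positions or on how its reads were assigned. In 8 members under 60% of windows were shared, among them Rps3, Rps9, Rps14, Rps15, Rps21 and Rps27l. Rps3 shared 8.1%. For these 8 the median log2 fold change was 0.63, and 0.48 without KO6, and 6 of the 8 reached an unadjusted p below 0.05. The other 25 members had a median of 0.42, and 0.16 without KO6, and 7 of them reached it. Of all tested genes, 2.99% reached it in the direction of the knockouts. Mean FPKM had a median of 795 in the 8 members and 423 in the other 25. The part of abundance in the unlike fold changes of these classes was not tested. Across the 33 members the Spearman rho of the shared percentage with mean FPKM was -0.39, and with log2 fold change -0.20. Of all members, 8 overlap a gene on the opposite strand, among them Rps18 with Vps52.

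The authors' deposited table flagged 29 of 33 members at its p-value threshold of 0.05, against 6.37% of all 39009 rows, and 27 of 33 at its threshold of 0.001, against 3.11% of rows. Members that the authors' deposited table left unflagged at 0.05 included Rps6, Rps13 and Rps28. These shares are over all rows, most of them below the filter of 1 FPKM that every member passed. The share flagged among the 11118 tested genes was not counted. The sources used here do not name the test behind these flags. In the limma fit over mice, the 4 unflagged genes had the smallest fold changes of the module, and none of the 29 flagged members passed the adjusted threshold.

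Proteins of the large subunit, the partner in translation, showed a like spread of fold changes. Of 45 tested, 44 were above 0, 13 reached an unadjusted p below 0.05 in the direction of the knockouts, and 0 in the other direction or after adjustment. Their median was 0.41, and 0.20 without KO6, beside 0.42 and 0.26 for the small subunit. Of all tested genes, 36.4% were above 0, and 2.99% reached that p higher in knockouts and 7.33% lower. Rpl22 averaged 1432 ± 306 FPKM in knockouts and 771 ± 248 FPKM in wild types, and the stalk protein Rplp1 averaged 2543 ± 522 FPKM in knockouts and 1615 ± 328 FPKM in wild types (SD, n = 4 each; adjusted p = 0.480 for both). For both, every knockout exceeded every wild type.

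**Figure D5:**
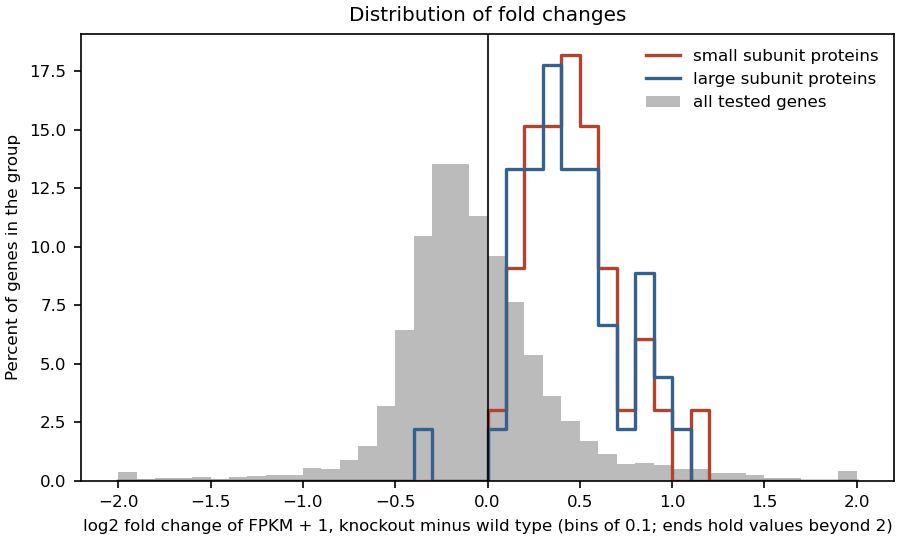
Percent of genes in each bin of log2 fold change (FPKM + 1, knockout minus wild type, bins of 0.1) for the 33 small subunit proteins (red line), 45 large subunit proteins (blue line) and all 11118 tested genes (grey bars); the end bins hold values beyond 2. The medians are 0.42 for the small subunit, 0.41 for the large subunit and -0.12 for all tested genes.

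The histogram of fold changes places the small and large subunit proteins in the same range, to the right of the bulk of genes. Other parts of the same system did not lie there as groups. Of 48 factors that assemble the small subunit, 1 reached an unadjusted p below 0.05 higher in knockouts and 6 lower, and their median was -0.13, close to that of all tested genes. That rule was met by 2.99% of all tested genes higher in knockouts and by 7.33% lower, and the list counts were not tested against these shares. Krr1, needed for early cleavage of the ribosomal RNA precursor in yeast, averaged 6.02 ± 2.05 FPKM in knockouts and 10.7 ± 2.02 FPKM in wild types, with separate groups, and Noc4l averaged 5.11 ± 0.840 FPKM in knockouts and 7.02 ± 0.657 FPKM in wild types. Of 15 genes for ribosomal RNA synthesis and Myc, 0 were higher and 2 lower by that rule, with a median of -0.12. Polr1a, the large subunit of RNA polymerase I, averaged 2.90 ± 0.553 FPKM in knockouts and 4.39 ± 1.31 FPKM in wild types, and Polr1b averaged 1.75 ± 0.532 FPKM in knockouts and 2.87 ± 0.834 FPKM in wild types. None of these genes passed the adjusted threshold.

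Regulators and partners of the small subunit were also counted, beside the same shares of all tested genes, 2.99% higher and 7.33% lower. Of 14 S6 kinases and regulators of TOP messenger RNAs, 0 were higher and 5 lower by an unadjusted p below 0.05, with a median of -0.21. Larp1, which binds the TOP motif, averaged 8.55 ± 2.14 FPKM in knockouts and 13.8 ± 3.93 FPKM in wild types, and Mlst8, an mTORC1 subunit, averaged 2.30 ± 0.250 FPKM in knockouts and 3.38 ± 0.712 FPKM in wild types. Of 24 genes listed as initiation factors or other proteins bound to the small subunit, 2 were higher and 0 lower. Their median was 0.00. The initiation factor gene Eif3m averaged 121 ± 8.88 FPKM in knockouts and 88.5 ± 20.3 FPKM in wild types. The other, Gnb2l1, encodes RACK1, a scaffold bound to the head of the subunit and not an initiation factor. Gnb2l1 averaged 1130.2 ± 183 FPKM in knockouts and 827 ± 233 FPKM in wild types. Each of these 4 genes had an adjusted p between 0.480 and 0.484.

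Of 18 other messenger RNAs with a TOP motif, 3 were higher and 0 lower by the same rule, and the median was -0.01. Tpt1 averaged 2454 ± 374 FPKM in knockouts and 1653 ± 303 FPKM in wild types, with separate groups, and the elongation factor Eef1b2 averaged 614 ± 178 FPKM in knockouts and 403 ± 77.0 FPKM in wild types. Proteins of the mitochondrial small subunit, made for a separate ribosome, had a median of -0.02 over 30 genes, with 2 higher and 1 lower. Mrps24 averaged 156 ± 16.5 FPKM in knockouts and 99.4 ± 15.8 FPKM in wild types, and Mrps18c averaged 166 ± 21.2 FPKM in knockouts and 118 ± 10.3 FPKM in wild types, both with separate groups. The shares over all tested genes were again 2.99% higher and 7.33% lower. No member of these lists passed the adjusted threshold, and the differences between lists were not tested.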

How the data were processed

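Messenger RNA of the gastrocnemius of 4 Bcat2 knockouts and 4 wild types was read for 50 cycles from 1 end, from TruSeq RNA v2 libraries of RNA with an integrity number above 7, per the labels' protocols. The authors aligned reads to mm10 with TopHat 2.0.9 and made FPKM from uniquely mapped reads with Cufflinks 2.0.2, per the labels' protocols, whereas the submitters' processing notes give CASAVA 1.8.2 and another Cufflinks version, 2.2.1. The deposited unit is FPKM, 1 column per mouse, and the authors' deposited table adds 0 or 1 flags for 2 thresholds of their p-value, per the file headers. FPKM hold no read totals, so no counting interval can be given, and the errors are those between mice.

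Where several rows shared a symbol, the row highest on average was taken. The 11118 genes averaging 1 FPKM or more were fitted with limma-trend on log2(FPKM + 1), genotype as the only term, 2-sided, with Benjamini-Hochberg adjustment over all of them and a threshold of 0.05. Fold changes are knockout minus wild type on that scale, which understates the change of low genes. For single members an exact permutation test over 70 labelled splits was added. The code was tested on simulated data. A relative depth was taken as the mode of log2 ratios to WT2 over genes under 0.3 FPKM. Coding sequences and overlapping genes came from GENCODE M21, and start sequences from RefSeq. Positions are the deposited start plus 1. Alternatives were other pseudocounts, filters, scalings and weights, summed rows, a length and GC correction, each mouse left out in turn, and WT1 with KO6 left out. Members given mouse by mouse are the 6 with the smallest p, the 4 with the lowest fold change, and Rpsa, Fau, Rps27a, Rps6, Rps27, Rps27l and Rps4x by role. Some genes of the module and lists enter the fit and the counts but are not reported here singly. Of each other list the 2 genes with the smallest p were named. Members, lists and tests were chosen with earlier results of these data known. Software was limma 3.58.1 in R 4.3.3, and pandas 2.3.3, scipy 1.17.1 and matplotlib 3.10.9 in Python 3.11.15.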

Additional observations from a re-analysis of the deposited data

Results flagged for a closer look

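Within a group of 4 mice, a value was picked out where the gap between the highest or lowest mouse and its nearest neighbour took up more of the group's whole range than Dixon's 95% critical value for 4 values. Of 134 groups of values checked, 27 met this, and chance alone picks out about 1 in 20 groups. Among the 58 groups of member values, 9 met it, 6 of them with KO6 as the highest knockout.

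KO6 stood above the other knockouts in Rps18 with 766 FPKM (gap of 0.893 of the range), Rps20 with 1146 FPKM (0.889) and Rps10 with 365 FPKM (0.888). It did so as well in Rps27a with 1254 FPKM (0.851), Rps19 with 439 FPKM (0.85) and Fau with 311 FPKM (0.832). WT3 stood below the other wild types in Rps16 with 143 FPKM (0.953), Rps27a with 285 FPKM (0.89) and Rps27 with 1318 FPKM (0.863).

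Outside the module, KO6 stood above the other knockouts in the skin keratins Krt10 with 162 FPKM (0.999), Krt5 with 86.6 FPKM (0.999) and Krt14 with 108 FPKM (0.997). It also did in the B-cell gene Cd79a with 18.0 FPKM (0.977), in Vcam1 with 4.31 FPKM (0.899), in Gnb2l1 with 1403 FPKM (0.885) and in the myeloid gene Lyz2 with 287 FPKM (0.87). Its adipocyte transcripts were likewise apart, with Adipoq at 311 FPKM (0.907) and Cfd at 1928 FPKM (0.874). WT1 stood above the other wild types in Cfd with 5069 FPKM (0.988), Scd1 with 1109.5 FPKM (0.986), Adipoq with 674 FPKM (0.984) and Bcat2 with 83.0 FPKM (0.885). WT3 stood above them in Polr1a with 6.34 FPKM (0.906) and Mlst8 with 4.44 FPKM (0.866), and below them in Rplp1 with 1127.5 FPKM (0.852). Krt14 in WT2, at 0.0808 FPKM (1.0), and Krt5 in WT4, at 0.0478 FPKM (0.86), were picked out at levels near 0.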

How the results depend on the processing

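Under 20 alternatives, 570 of 580 fold changes of 29 members kept their direction and 10 reversed, and 0 of them passed the adjusted threshold. The adjusted p of Rps14 ran from 0.351 to 0.873. For 25 of these members no alternative reversed the direction. Quantile normalization gave -0.096 for Rps28, the length and GC correction gave -0.037 for Rps28, and rescaling to an equal FPKM total gave -0.0071 for Rps28. Without WT1 and KO6, Rps28 had -0.13, Rps13 -0.036 and Rps6 -0.026. With each mouse left out in turn, Rps28 ran from -0.14 to 0.25, Rps6 from -0.094 to 0.24, Rps13 from -0.049 to 0.26 and Rps4x from -0.0059 to 0.44, lowest without KO6 in each. The count of members with an unadjusted p below 0.05 and higher in knockouts ran from 6 to 16 with a mouse left out, and was 24 after median-ratio scaling. The count of all genes with an adjusted p below 0.05 ran from 3 to 8 with a mouse left out, and was 10 without WT1 and KO6. The member median ran from 0.26 to 0.57 with a mouse left out, and the count of members with separate groups from 10 to 12. Leaving out a mouse cannot lower that count, and 2.51% of genes tested without KO6 and 2.74% without KO5 met its rule. The count was 7 after rescaling to an equal total (1.64% of tested genes) and 7 after the length and GC correction (1.67%). It was 9 after quantile normalization (3.14%) and 13 after median-ratio scaling (3.55%). The members' median lay 0.33 above that of all genes after quantile normalization and 0.40 above it with array weights, against 0.54 as deposited. The causes were not tested. No paired analysis was possible because the knockout columns carry numbers that match no labelled knockout. FPKM carry no read totals, so depth limits low genes to an unknown degree; every member had at least 69.0 FPKM in every mouse.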

Other observations

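Transcripts of other cells of the muscle, beside the skin, adipocyte and immune markers given above, were listed as well. None of the markers named here passed the adjusted threshold. An unadjusted limma p below 0.05 was reached by 2.99% of all tested genes higher in knockouts and by 7.33% lower. Of 8 tested Schwann cell markers, all 8 had fold changes above 0 and 3 an unadjusted limma p below 0.05, with sums of 79.8 to 192 FPKM in knockouts and 53.1 to 98.2 FPKM in wild types. The myelin genes Ncmap and Mal averaged 2.87 ± 1.77 and 3.09 ± 1.12 FPKM in knockouts, against 0.917 ± 0.234 and 1.56 ± 0.384 FPKM in wild types (SD, n = 4 each), and both had separate groups. Of 10 fibroblast markers, 5 reached that p in the direction of the wild types, with sums of 392 to 589 FPKM in knockouts and 452 to 745 FPKM in wild types. The collagen VI genes Col6a1 and Col6a2 averaged 8.95 ± 1.95 and 7.71 ± 2.33 FPKM in knockouts, against 19.3 ± 6.09 and 17.4 ± 5.51 FPKM in wild types.

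Of 10 endothelial markers, 3 reached it in the direction of the wild types. Cdh5 and Kdr averaged 11.3 ± 2.11 and 4.65 ± 1.36 FPKM in knockouts, against 18.0 ± 3.93 and 7.63 ± 1.78 FPKM in wild types. Of 11 muscle markers, 2 did: the fibre myosin Myh4 and titin, Ttn, averaged 2616 ± 402 and 34.3 ± 11.2 FPKM in knockouts, against 4044 ± 872 and 57.5 ± 17.4 FPKM in wild types. The Myh4 value of WT2 carries a note of a Cufflinks error in the deposited table. All 4 wild-type Myh4 values are whole numbers, 2814, 4491, 4798 and 4071 FPKM in WT1 to WT4, whereas the knockout values have decimals. Whether the wild-type values were made in another way was not tested, so the Myh4 difference is uncertain. Among 5 erythroid and 2 satellite cell markers tested, 0 reached it. Hba-a1 and Hba-a2 averaged 77.4 ± 38.9 and 45.6 ± 24.5 FPKM in knockouts, against 119.8 ± 43.4 and 66.0 ± 25.4 FPKM in wild types. Myod1 averaged 4.86 ± 2.16 FPKM in knockouts and 6.55 ± 1.11 FPKM in wild types. The part of these cell types in the small subunit values was not tested.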
